A study of Mus musculus with 4 samples.

Results

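The metallothioneins Mt1, Mt2, Mt3 and Mt4, their transcriptional regulator Mtf1 and the zinc exporter Slc30a1 were examined in ears of mice that had inhaled diesel exhaust particles (DEPs) and in control ears. Members were the array probes whose RefSeq accession belongs to 1 of these 6 genes, whatever their values, which gave 8 probes among 39429 on the array. Through such accessions 27655 probes were named, and they stand for 20971 genes. Mtf1 had 3 probes and every other member had 1. The study asked which genes in the middle ear respond to DEPs. Male BALB/c mice 6 to 10 weeks old were used, 9 in all, and exposure was by inhalation for 1 h daily over 5 days, with the tissue taken on day 14. Control animals are labelled as having had no treatment, and all groups are of 1 strain with no genetic change named in the labels. The tissue was a dissected region of the temporal bone around the middle ear, so that several tissues contribute RNA to an extract.

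Metallothioneins are small, cysteine-rich proteins that bind zinc and copper, buffer free metal in the cell and take up toxic metals such as cadmium. Mtf1 encodes MTF-1, a zinc finger protein that senses a rise in free zinc and then binds short DNA letters, the metal response elements, in front of its target genes. Mt1, Mt2 and Slc30a1 are classic targets, and Slc30a1 encodes ZnT1, which moves zinc out of the cell across the plasma membrane. Mt1 and Mt2 are made in most cell types and are also raised by glucocorticoids, by the acute phase response and by oxidants, whereas Mt3 is best known from brain and Mt4 from stratified squamous epithelium such as skin.

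The 4 metallothionein genes lie side by side on mouse chromosome 8, in the order Mt4 (94137204 to 94139031), Mt3 (94152607 to 94154148), Mt2 (94172618 to 94173567) and Mt1 (94178883 to 94180327) in build GRCm38.p6. Mtf1 lies on chromosome 4 (124802549 to 124849800) and Slc30a1 on chromosome 1 (191906697 to 191913248). The 250 bases before the start site of RefSeq's promoter table are shown for the pair of genes whose ratios were alike (Mt1 and Mt2), for the family member whose ratios differed from theirs (Mt3) and for the exporter, since MTF-1 acts on such stretches. The sequences are from RefSeq (GRCm38.p6), which held all 6 members, and are written 5′ to 3′ on the plus strand, on which all 4 genes run. They cover chr8:94178839-94179088 for Mt1, chr8:94172368-94172617 for Mt2, chr8:94152357-94152606 for Mt3 and chr1:191906531-191906780 for Slc30a1. For Mt2 and Mt3 the stretch ends just before the gene. Mt1 and Slc30a1 each have more than 1 RefSeq transcript, and the start site the table uses lies downstream of the first base of the gene given above, so that their stretches run into the gene. Capitals mark the core letters of the metal response element, TGCACNC or TGCGCNC, on either strand.
Mt1: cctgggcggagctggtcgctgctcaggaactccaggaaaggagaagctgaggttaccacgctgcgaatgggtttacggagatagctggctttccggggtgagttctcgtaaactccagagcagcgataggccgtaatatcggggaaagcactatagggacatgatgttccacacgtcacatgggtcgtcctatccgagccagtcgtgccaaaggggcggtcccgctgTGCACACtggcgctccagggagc
Mt2: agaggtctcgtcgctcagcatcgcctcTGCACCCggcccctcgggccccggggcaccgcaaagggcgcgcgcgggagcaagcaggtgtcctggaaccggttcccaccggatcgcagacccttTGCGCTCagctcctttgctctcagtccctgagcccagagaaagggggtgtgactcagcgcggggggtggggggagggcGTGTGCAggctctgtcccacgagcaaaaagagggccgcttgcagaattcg
Mt3: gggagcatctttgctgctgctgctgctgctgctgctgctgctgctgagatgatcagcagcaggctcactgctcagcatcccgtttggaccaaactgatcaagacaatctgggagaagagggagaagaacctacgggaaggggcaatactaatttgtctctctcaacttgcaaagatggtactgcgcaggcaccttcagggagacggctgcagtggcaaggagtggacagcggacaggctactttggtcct
Slc30a1: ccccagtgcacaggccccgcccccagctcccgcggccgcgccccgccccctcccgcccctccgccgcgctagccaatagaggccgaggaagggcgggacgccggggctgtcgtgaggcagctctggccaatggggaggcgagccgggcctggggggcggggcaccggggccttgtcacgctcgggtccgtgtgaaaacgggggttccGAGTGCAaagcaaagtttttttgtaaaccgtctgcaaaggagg

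These 250 bases held the letters 1 time in Mt1 (first base 23 bases before the start site), 3 times in Mt2 (223, 128 and 50 bases before it), 1 time in Mt4 (91 bases before it) and 1 time in Slc30a1 (43 bases before it). The stretches before Mt3 and Mtf1 held no match. With the first 50 transcribed bases added, the counts were 3 for Mt1, 4 for Mt2, 1 for Mt3, 1 for Mt4, 0 for Mtf1 and 2 for Slc30a1. Among 32817 mouse promoters of that 300-base length, 25.7% held at least 1 match, 7.12% at least 2 and 1.97% at least 3. No matches in the members overlapped each other. A match describes the letters and is not a measured binding site.

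On each of 4 two-colour arrays, Cy5 (red) marked the extract that the source names call the DEP ear, and Cy3 (green) marked the control ear. The number of mice behind an extract is not given, and a p-value below measures the spread between these 4 arrays only. No array had the dyes exchanged, so dye and group cannot be told apart. All arrays were on 1 slide and in 1 scan. Between 60.5% and 70.0% of spots were well above background in a channel, and no spot was saturated. Over all probes the ratios of the arrays correlated with r between -0.24 (arrays 1 and 4) and 0.61 (arrays 1 and 2). Over probes above background throughout, r was -0.46, -0.04 and 0.15 for array 4 with arrays 1, 2 and 3. It was 0.64 there for arrays 1 and 2. The arrays thus differ widely from each other.

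All values below come from the processed signal, an intensity in arbitrary units that the image software has corrected for background and for the dyes. Array 1 was the brightest overall (median signal 162 in Cy5, against 108 on array 4), so a gene's signals are compared within an array, as the log2 ratio of DEP over control. The treatments in the labels are listed under the red channel for both groups, so the direction rests on the source names alone. It is opposite to the direction that the study's text gives for most of the genes it names, of which no count is given here. By qRT-PCR the study reports a rise of CHRM1 and EPO and a fall of ESR1, SOS1, CD4 and IFNA1, as in its array results. Every sign below would turn if the channels held the groups the other way round.

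With the image software's ratio, Mt1 and Mt2, the broadly made metallothioneins, did not differ between DEP and control ears beyond the spread of the arrays. The 4 arrays went both ways. Under another normalization, given below, both were higher in DEP ears with a limma adjusted p under 0.05, a threshold that 2226 of 17946 genes passed there. Mt1 (probe A_66_P111660) had signals of 50450, 37474, 32575 and 34685 in the DEP ears of arrays 1 to 4, and 63134, 42843, 29648 and 24249 in the control ears beside them. The control ear was brighter on arrays 1 and 2 and the DEP ear on arrays 3 and 4. As log2 ratios these were -0.32, -0.19, 0.14 and 0.52, with a mean of 0.034 ± 0.375 (SD, n = 4 arrays). The 95% interval of the mean ran from -0.42 to 0.48, or from 0.749-fold to 1.40-fold, and limma's adjusted p over all probes was 0.927. The mean was -0.00011 without array 3 and -0.13 without array 4.

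For Mt2 (probe A_51_P246317) the DEP ears gave 31625, 19287, 15332 and 16631 and the control ears 34798, 20920, 16215 and 12099. The control ear was slightly the brighter on arrays 1 to 3, and on array 4 the DEP ear was brighter. The log2 ratios were -0.14, -0.12, -0.08 and 0.46, with a mean of 0.031 ± 0.286 (SD, n = 4), a 95% interval from -0.35 to 0.41 and a limma adjusted p of 0.921. Array 4 decided the sign, as the mean without it was -0.11. Mt1 and Mt2 differed from each other by 0.0031 ± 0.174 in log2 ratio (SD, n = 4). They are close paralogs, and how far each probe also binds the other transcript was not tested, as probe sequences were not used here.

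**Figure D1:**
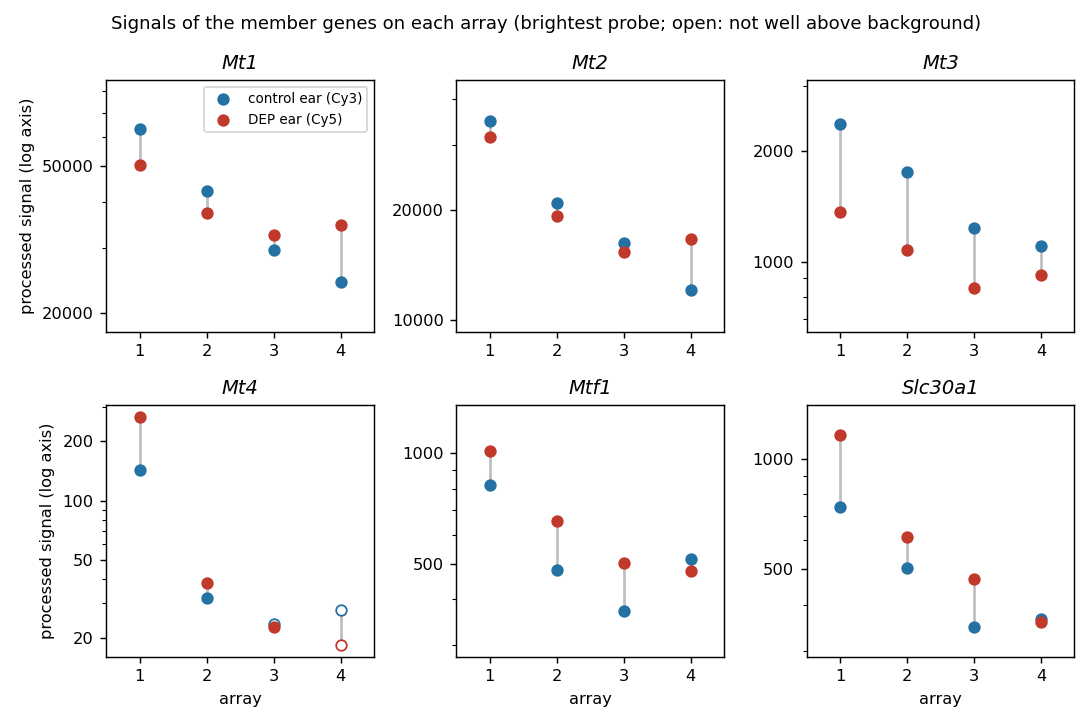
Processed signals (log axis, arbitrary units) of the brightest probe of each member gene on arrays 1 to 4, with the DEP ear in red and the control ear in blue, joined by a grey line within an array. Open points were not well above background. The control point lies above the DEP point on all 4 arrays for Mt3, and the order of the points changes between arrays for the other genes.

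With the image software's ratio, Mt3, the metallothionein best known from brain, was the only member with the same sign on all 4 arrays at its brightest probe. It was lower in the DEP ears. Under another normalization given below, its mean was -0.21 and its ratio on array 4 turned to 0.11. Its probe A_52_P320971 gave 1362, 1078, 850 and 920 in the DEP ears and 2372, 1752, 1231 and 1104 in the control ears, well above background throughout. The control ear was the brighter on every array, most on array 1 and least on array 4. The log2 ratios were -0.80, -0.70, -0.53 and -0.26, with a mean of -0.57 ± 0.24 (SD, n = 4) and a 95% interval from -0.92 to -0.23. That is 0.672-fold in DEP ears, or 1.49-fold in control over DEP. The gene did not pass the adjustment over all 31577 probes (limma adjusted p = 0.161), and no other gene did (smallest adjusted p 0.0922). The exact sign-flip permutation test, two-sided, gave the smallest p that 4 arrays allow, 1 in the 8 distinct sign patterns.

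Of 17946 genes tested with limma, 0 had an adjusted p under 0.05 (0.0%), and none of the members did. Genes lower in DEP on all 4 arrays made up 10.2% of those tested, and genes higher on all 4 made up 16.2%. At an unadjusted p under 0.05, 7.48% of genes were lower in DEP and 9.18% were higher. By brightest probe, 1 of the 6 members, Mt3, was lower by both of these measures and 0 were higher by either. A mean ratio past 2-fold was seen for 6.21% of genes and for 0 of the members. A single member among 6 cannot be told apart from that background.

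Mt4, the metallothionein of stratified squamous epithelium, was dim on most arrays. In the DEP ears the signals of its probe A_51_P424272 were 266, 38.1, 22.7 and 18.5, and in the control ears 143, 32.0, 23.6 and 27.9. Arrays 1 and 2 had both channels well above background. On array 3 the DEP ear alone was so, as Cy5 signals passed at lower values than Cy3 signals there. On array 4 neither was, so the ratios of arrays 3 and 4 are not measured differences. Only array 1 was bright, and there the DEP ear was the brighter. The log2 ratios were 0.90, 0.25, -0.06 and -0.59, with a mean of 0.13 ± 0.62 (SD, n = 4), a 95% interval from -0.55 to 0.80 and a limma adjusted p of 0.810. The mean, its spread and its p take in the arrays at background. Without array 1 the mean was -0.13, which rests mostly on the arrays at background.

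Mtf1, the regulator, had higher mean signals in the DEP ears at both of its probes that were above background, without passing the adjustment. At the brightest, A_52_P467266, the DEP ears gave 1011, 652, 502 and 477 and the control ears 819, 482, 373 and 514. The DEP ear was the brighter on arrays 1 to 3 and the control ear on array 4. The log2 ratios of 0.30, 0.44, 0.43 and -0.11 had a mean of 0.26 ± 0.26 (SD, n = 4), with a 95% interval from -0.09 to 0.62 and a limma adjusted p of 0.362.

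The second Mtf1 probe, A_55_P2069277, gave 153, 108, 79.6 and 85.3 in DEP ears against 112, 92.4, 66.5 and 74.8 in control ears. Here the DEP ear was the brighter on all 4 arrays. The ratios of 0.45, 0.23, 0.26 and 0.19 had a mean of 0.28 ± 0.12 (SD, n = 4), a 95% interval from 0.0051 to 0.56 and a limma adjusted p of 0.264. The third, A_52_P55666, was not well above background in any channel of any array, so no fold is given for it. With the image software's ratio, the probes that were measured thus had nearly the same mean and disagreed in sign on array 4 alone. Their means under other normalizations are given below.

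Slc30a1, the zinc exporter, had a pattern near that of Mtf1. The DEP ears gave 1162, 613, 470 and 359 at probe A_51_P300572 and the control ears 741, 505, 349 and 367. As with Mtf1, the DEP ear was the brighter on arrays 1 to 3, and on array 4 the channels were nearly level. The log2 ratios were 0.65, 0.28, 0.43 and -0.03, with a mean of 0.33 ± 0.28 (SD, n = 4), or 1.26-fold, a 95% interval from -0.05 to 0.71 and a limma adjusted p of 0.306. The exact permutation test gave p = 0.25 for Slc30a1 and for Mtf1, two-sided, against 0.75 for Mt4 and 1.0 for Mt1 and Mt2.

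**Figure D2:**
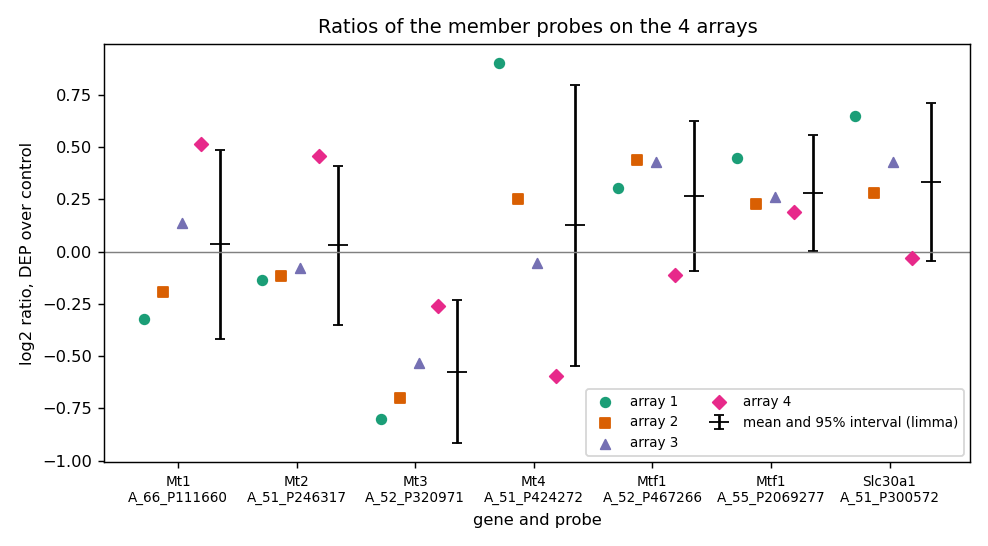
The log2 ratio of DEP over control for each member probe that was above background in some channel, with 1 symbol per array and, to its right, the mean with limma's 95% interval. All symbols of Mt3 lie below 0 (-0.80 to -0.26) and all of the second Mtf1 probe lie above it (0.19 to 0.45), while the intervals of Mt1, Mt2 and Mt4 span 0 on both sides.

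The members were also compared with each other within each array, which leaves aside how bright that array was. The gaps that kept their sign all involved Mt3. The ratio of Mt1 exceeded that of Mt3 by 0.48, 0.51, 0.67 and 0.78 on the 4 arrays, 0.61 ± 0.14 on average (SD, n = 4), and the ratio of Mt2 exceeded it by 0.61 ± 0.12. Mt3 was also below Mtf1, by a mean difference of -0.84 ± 0.46, and below Slc30a1, by -0.91 ± 0.50, on 4 of 4 arrays each. These 4 of the 15 pairs went 1 way on every array. Each had the smallest p the exact permutation test can give with 4 arrays (1 in 8), and an adjusted p of 0.469 over the 15 pairs, so the number of arrays could not have taken any pair under 0.05. Mtf1 and Slc30a1 differed from each other by -0.067 ± 0.209.

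Across the 8 channels, with signals set on a common scale, the closest pair among the members above background was Mt1 with Mt2 (Pearson r = 0.87), followed by Mtf1 with Slc30a1 (r = 0.77). The lowest values were those of Mt3 with Mtf1 (r = -0.56) and with Slc30a1 (r = -0.37). The channels of an array share a hybridisation and those of a dye share its group, so these values are descriptions. Of 14281 other genes above background throughout, those most like Mt1 were Tsnax (r = 0.98), Tefm and Uba3. Mt2 was most like Zfand2a (r = 0.96), Tmem50b and Gtf2ird2. Ubb (r = 0.99), which encodes ubiquitin, Grcc10 and Fbxl5 were nearest to Mt3. For Mtf1 the nearest were Cnot6l (r = 0.97), 1700123O20Rik and Wapl, and for Slc30a1 they were Nop14 (r = 0.98), Heatr5b and Hras.

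The medians of nervous tissue markers were, like Mt3, lower in the DEP ears on arrays 1 to 3. Extracts of this region can hold brain, since the temporal bone lies against it, and skin of the outer ear. Over 15 neuronal genes the median log2 ratio was -2.37, -1.49, -0.60 and 0.21 on arrays 1 to 4, over 10 astrocyte genes it was -2.37, -0.85, -0.19 and 0.12, and over 11 cerebellar genes (9 on array 4) -3.07, -3.55, -0.24 and 0.22. Some of these include channels at background. Over the 6 cerebellar genes measured in both channels of all arrays the medians were -3.24, -3.36, -0.33 and 0.23, and over 13 such neuronal genes -2.16, -1.38, -0.60 and 0.29, a restriction chosen after seeing the data. All 15 neuronal genes, 9 of 10 astrocyte genes and all 11 cerebellar genes had a lower mean in DEP ears. Mt3 thus had its lowest ratio on the array where the neuronal and astrocyte lists had theirs, and its ratios spanned a narrower range. On array 4 the medians of these lists were above 0 and Mt3 was at -0.26, which is 0.47 below the neuronal, 0.39 below the astrocyte and 0.48 below the cerebellar median. In these lists 6 of 15 neuronal, 2 of 10 astrocyte and 2 of 11 cerebellar genes were lower in the DEP ear on all 4 arrays, beside 10.2% of all genes. Single markers went both ways on array 4: Slc1a2, an astrocyte glutamate transporter, was at -0.85 and the synaptic gene Syt1 at -0.34, while the neurofilament genes Nefl and Nefm were at 1.16 and 1.07 and Aqp4 of astrocytes at 0.49. At an unadjusted p under 0.05, 8 neuronal, 2 astrocyte and 3 cerebellar genes were lower in DEP ears, beside 7.48% of all genes, and none had an adjusted p under 0.05 with limma.

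None of these lists was absent. In both channels of all arrays, 13 of 15 neuronal, 10 of 10 astrocyte and 6 of 12 cerebellar genes on the array were well above background. The cerebellar genes Calb1, Car8 and Cbln3 were so in the DEP ear on 0 arrays and in the control ear on 2. The summed signal of the neuronal list, on a common scale, ranged from 19619 to 43577 in DEP ears and from 33317 to 78034 in control ears. For astrocytes it ranged from 44553 to 64219 against 54699 to 186810, and for cerebellum from 5906 to 9967 against 5318 to 75621. These ranges run over arrays and do not pair the ears of an array, so no difference within an array can be read from them. The part of nervous tissue in the Mt3 ratio was not tested. In such mixed extracts, fewer cells of a type and less RNA per cell cannot be told apart.

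The keratinised epithelium list, which includes Krt1, Krt10 and Lor, had medians of 3.04, 0.49, 0.52 and -0.90 on arrays 1 to 4. On arrays 1 and 2, where Mt4 was measured in both channels, its ratios were 0.90 and 0.25, and no course over all 4 arrays can be read for it. Its 9 genes on the array were well above background throughout, and all 9 had a higher mean in DEP ears. On array 4 all 9 were below 0, from -1.80 (Krt14) to -0.04 (Krt10). Thus 0 of them were higher on all 4 arrays, beside 16.2% of all genes. At an unadjusted p under 0.05, 0 were higher, beside 9.18% of all genes. Their summed signal ranged from 49106 to 314770 in DEP ears and from 45247 to 83643 in control ears. What this tissue contributes to the Mt4 ratio was not tested. The labelled tissue itself was visible: all 10 genes of the middle ear and airway epithelium, among them Bpifa1, Muc5b and Foxj1, were well above background in both channels of all arrays. Among inner ear genes 5 of 9 were, and Strc was above background in no channel.

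**Figure D3:**
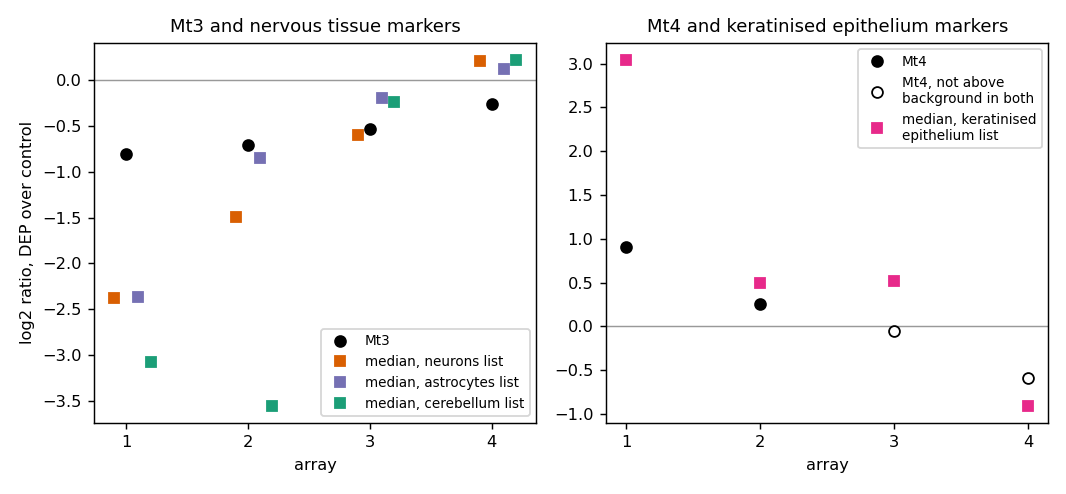
Log2 ratios of DEP over control on arrays 1 to 4 for Mt3 with the medians of the neuron, astrocyte and cerebellum lists (left), and for Mt4 with the median of the keratinised epithelium list (right). Squares are list medians and black circles the member gene (open where Mt4 was not well above background in both channels), and squares on the left are set apart sideways for legibility. Mt3 stays between -0.80 and -0.26 while the nervous tissue medians run from -3.55 to 0.22.

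Other genes of metal handling were split between the directions. Their medians are set beside that of all genes tested, 0.037. Among the zinc exporters of the SLC30 family other than Slc30a1, 4 of 8 tested genes had a higher and 4 a lower mean, with a median of 0.017. That median was -0.20 without array 3, -0.27 without array 4 and 0.15 among genes above background, so it has no settled direction. Of the 14 SLC39 zinc importers, 8 were higher and 6 lower (median 0.024, and -0.040 to 0.080 with 1 array left out), and 1 in each direction had an unadjusted p under 0.05, beside 9.18% (higher) and 7.48% (lower) of all genes. Slc39a2 had ratios of 0.51, 0.39, 0.07 and 0.34, with a mean of 0.33 ± 0.19 (SD, n = 4) and a limma adjusted p of 0.257. Its control channel was not well above background on array 3, so that the ratio of 0.07, and with it the mean, takes in a value at background. Slc39a7, which releases zinc from the endoplasmic reticulum, had ratios of -0.31, -0.21, -0.56 and -0.33, with a mean of -0.35 ± 0.15 (SD, n = 4) and a limma adjusted p of 0.222. Copper handling genes, such as the exporter Atp7a and the chaperone Atox1, were higher for 4 and lower for 7 of 11. Their median was -0.025, and -0.029 to -0.0092 with 1 array left out. When the background was corrected by normexp, their median turned to 0.020 with loess and to 0.37 with each array centred on its median.

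Other genes bound or controlled by MTF-1 were higher for 3 and lower for 5 of 8. Their median was -0.070, and -0.13 to -0.044 with 1 array left out, and it turned to 0.30 with median centring. Hamp, which encodes the iron hormone hepcidin, was the one of them with an unadjusted p under 0.05, where 9.18% of all genes were higher. It was well above background in the DEP ear on 4 arrays and in the control ear on 0, so its p rests on control values at background and nothing is read from that count. Only a bound can be given, and it was at least 1.67-fold higher in the DEP ears (limma adjusted p = 0.0922). Slc40a1, the iron exporter ferroportin, had a mean of 0.50 ± 0.43 (SD, n = 4) and an adjusted p of 0.272 by limma.

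The other responses that act on Mt1 and Mt2 were counted in the same way. In the glucocorticoid response 7 of 10 genes were higher and 3 lower, with a median of 0.18, and of 0.55 with median centring. At an unadjusted p under 0.05, 3 of the 10 were higher and 0 lower, beside 9.18% and 7.48% of all genes. These were Per1, a clock gene with ratios of 0.52, 0.55, 0.65 and 0.86 (mean 0.64 ± 0.15 SD, n = 4, limma adjusted p = 0.122), Fkbp5, a partner of the glucocorticoid receptor, and Sgk1, a kinase. Fkbp5 had ratios of 0.89, 0.36, 0.41 and 0.39, with a mean of 0.51 ± 0.25 (SD, n = 4) and a limma adjusted p of 0.185. The ratios of Sgk1 were 0.64, 0.17, 0.35 and 0.31, with a mean of 0.37 ± 0.20 (SD, n = 4) and a limma adjusted p of 0.234. The remaining 7 include Tsc22d3, at -0.020 ± 0.323, and Klf9, at -0.37 ± 0.39, so genes of this list went both ways.

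For the acute phase and STAT3 response 8 of 10 genes were higher and 2 lower, with a median of 0.31, which was 0.15 without array 1, 0.20 without array 4 and 0.12 with normexp and loess. Its 1 gene with an unadjusted p under 0.05, Saa3, was above background in neither channel and has no fold, and 9.18% of all genes were higher at that threshold. The oxidant response was higher for 8 and lower for 2 of 10 genes (median 0.11), and 0 had an unadjusted p under 0.05, beside 9.18% (higher) and 7.48% (lower) of all genes. Its median was 0.025 without array 1, 0.046 without array 4, 0.0084 with loess and 0.37 with median centring. Hmox1, which breaks down haem and is raised by metals and oxidants, had a mean of 0.58 ± 0.56 (SD, n = 4) and a limma adjusted p of 0.289, with ratios near 0 on arrays 1 and 2 and above 1 on arrays 3 and 4. No gene of any of these 7 lists had an adjusted p under 0.05.

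**Figure D4:**
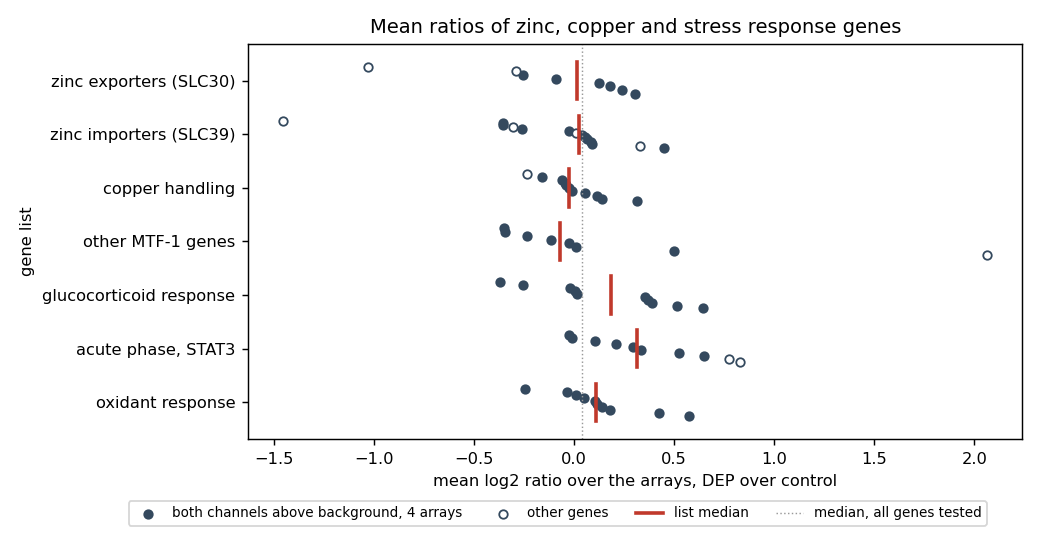
Mean log2 ratio of DEP over control for each tested gene of 7 lists, with filled points for genes well above background in both channels of all arrays and open points for the others. The red bar is the list median and the dotted line the median of all genes tested (0.037); list medians lie between -0.070 and 0.31.

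The values of Mt1 and Mt2 depended on how the dyes were made comparable before they were compared. Both genes lie within the brightest 5% of those tested. In the values above, the image software has fitted the dye difference along the range of brightness. When the background was corrected by normexp and each array was then only centred on its median, Mt1 had ratios of 0.59, 0.33, 1.01 and 1.17, with a mean of 0.78 and a limma adjusted p of 0.0446. Mt2 then had a mean of 0.69 and an adjusted p of 0.0420 with limma. Under that setting the median of all genes was 0.19 in place of 0.037, and 2226 genes passed the adjusted threshold of 0.05, 2124 of them with a higher mean in DEP. The brightest 5% of genes, 898 in number, had a median of 0.61 and 96.8% of them were above 0, against a median of -0.034 and 43.3% with the software's ratio. Relative to the median of all genes, Mt1 was 0.59 higher and Mt2 0.50 higher.

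With normexp followed by loess, which fits the dye difference along brightness again, Mt1 was at 0.060 and Mt2 at 0.11. Mt3 had a mean of -0.51 with loess and of -0.21 with median centring, where array 4 turned to 0.11 and limma's adjusted p was 0.295. Mtf1 was at 0.17 and 0.42 under these 2 settings at its brightest probe, and at 0.14 under each at its second. The 2 probes thus had unlike means with median centring. Slc30a1 was at 0.22 and 0.45, so both genes kept a mean above 0. Mt4 was at 0.17 and 0.064.

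**Figure D5:**
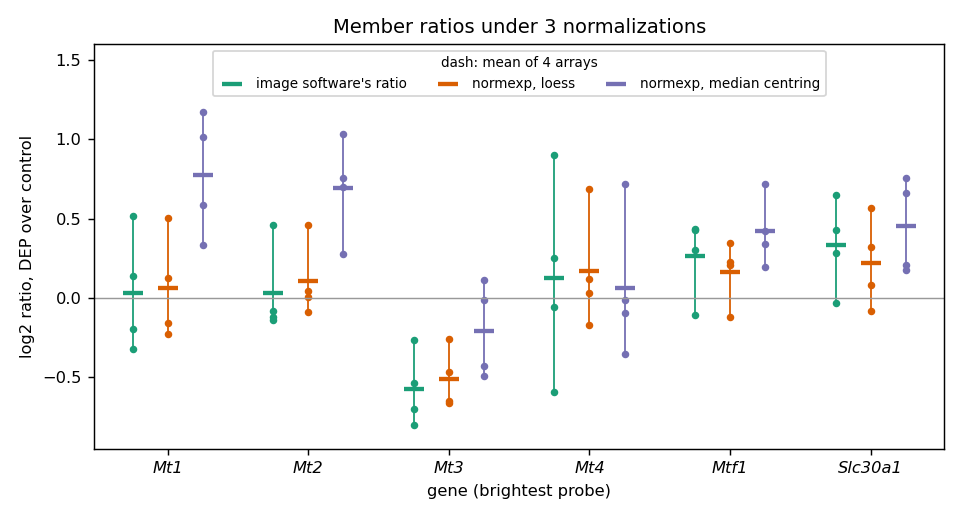
Log2 ratios of DEP over control at the brightest probe of each member under 3 normalizations, with a point per array, a line over their range and a dash for the mean. Mt1 and Mt2 sit near 0 with the image software's ratio and with loess and at 0.78 and 0.69 with median centring, while the mean of Mt3 is below 0 under all 3.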

How the data were processed

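Ear extracts were compared on 4 two-colour 4x44K mouse arrays, grouped by the source names of the labels. The authors quantified spots with Agilent Feature Extraction 10.10.1.1 and deposited its processed signals (intensities, background-subtracted and normalized for dye) and its log10 ratio of Cy5 over Cy3. The log10 ratios were put on the log2 scale. Control spots, outlier spots (164 to 274 per array) and spots without a ratio (6179 to 8558 of 43020) were not used, and at least 3 ratios were required of a probe. Probes were named through RefSeq (GRCm38.p6), the probe with the highest mean signal standing for a gene. In limma 3.58.1 (R 4.3.3) an intercept was fitted per probe with lmFit and eBayes, two-sided, with Benjamini-Hochberg adjustment over 31577 probes. The fit was tested on simulated data. Pairs of members were compared by exact sign-flip permutation. The small number of arrays limits the precision. Signals across arrays were set on a common scale by quantiles of the mean intensity. Tables and figures used Python 3.11.15, pandas 2.3.3, numpy 2.4.6, scipy 1.17.1 and matplotlib 3.10.9.

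The members, the lists of genes and the markers were chosen with earlier results of these data known. All members were named, as were genes of the 7 metal and stress response lists that on every array were above background in 1 channel or both and had 1 sign, with an unadjusted p under 0.05, and the 3 genes most like each of 5 members. Genes given as examples beyond this (Slc40a1, Tsc22d3, Klf9, Hmox1, Saa3, Slc39a12 and marker genes) were chosen after their values were seen. Alternatives were normexp (offset 50, on median spot signals) with loess or median centring, the authors' table of log10 ratios, 2 filters on dim probes, outlier spots kept, an intensity trend, no moderation, averaging the probes of a gene and leaving out each array. Of the value columns, 0 lacked a sample.

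Lists of marker genes other than those above gave medians over all arrays of -0.24 (middle ear and airway epithelium, -0.64 to 0.42 on single arrays), 0.036 (inner ear, -0.31 to 0.52), -0.0032 (bone, -0.35 to 0.49), 0.015 (erythroid cells, -0.84 to 0.41) and 0.052 (neutrophils and precursors, -0.90 to 0.61).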

Additional observations from a re-analysis of the deposited data

Results flagged for a closer look

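Of 23 values set against the other arrays of their group, 2 stood apart from the rest, and chance gives about 1 in 20. Mt2 had a log2 ratio of 0.459 on array 4, against -0.138 to -0.081 elsewhere. For the erythroid list the median log2 ratio was -0.835 on array 1, whereas the other arrays gave 0.199 to 0.411. The cause of either was not tested.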

How the results depend on the processing

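At their brightest probes, Mt3, Mtf1 and Slc30a1 kept the direction of their mean ratio in 13 of 13 alternatives each. The mean was between -0.68 and -0.21 for Mt3 (limma adjusted p 0.161 to 0.436) and 0.22 and 0.45 for Slc30a1. For Mtf1 it was between 0.17 and 0.60 (0.60 from averaging its probes, which takes in the probe not above background, and at most 0.42 otherwise). The second Mtf1 probe was between 0.14 and 0.31 in 12 alternatives. With normexp and median centring, Mt1 was at 0.777 and Mt2 at 0.691, both with an adjusted p under 0.05. That setting took the members with an adjusted p under 0.05 from 0 to 2, those with an unadjusted p under 0.05 from 1 to 4 and those with 1 sign on all arrays from 1 to 4. Over all genes it took those with an adjusted p under 0.05 from 0 to 2226 of 17946. Leaving out 1 array at a time gave means from -0.127 (without array 4) to 0.153 for Mt1, with -0.00011 without array 3, from -0.112 (without array 4) to 0.0870 for Mt2 and from -0.132 (without array 1) to 0.367 for Mt4. It gave 1 to 4 members with 1 sign and 1 to 2 with an unadjusted p under 0.05, the highest of each without array 4. With an array left out, fewer arrays have to go 1 way. The shares of all genes with 1 sign or an unadjusted p under 0.05 were not counted with median centring or with an array left out. Nothing is therefore read from these member counts. Mt4 had no value under either filter on dim probes. The 7 list medians moved by more than their spread over arrays in 0 to 4 of 12 alternatives each. Signal over background limits Mt4, Hamp and the third Mtf1 probe, and 4 arrays without a dye swap limit every value.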

Other observations

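On the common scale, the log2 level of Mt1 varied less in the DEP ears (15.22 ± 0.025, SD, n = 4) than in the control ears (15.18 ± 0.352), and that of Mt3 likewise (10.02 ± 0.064 against 10.59 ± 0.214). The difference in spread was not tested. Mt2 had SDs of 0.181 and 0.391, while Slc30a1 had the larger SD in DEP ears (0.427 against 0.199).

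Slc39a12, a zinc importer best known from brain, had log2 ratios of -3.78 and -3.52 on arrays 1 and 2, where both channels were well above background. On arrays 3 and 4 the control ear was not above background and no ratio is given. The gene was chosen after its values were seen.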
